A study of Sus scrofa with 8 samples.

Results

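The growth hormone (GH) and insulin-like growth factor (IGF) axis of the liver was followed through 10 transcripts: the receptor *GHR*, the growth factors *IGF1* and *IGF2*, the acid-labile subunit *IGFALS*, the binding proteins *IGFBP1*, *IGFBP2*, *IGFBP3* and *IGFBP4*, and the feedback inhibitors *SOCS2* and *CISH*. They were taken by symbol from a table of 18103 genes, in which all 10 were listed and all 10 passed the filter on low values. The libraries came from male Landrace x Large White pigs, a commercial crossbreed. The initial state (labelled Control, healthy, 4 months of age) was compared with steatosis (6 months of age, after 2 months on a steatotic diet), with 4 libraries per group and each library a pool of RNA from 2 animals, so 8 pigs per group. The diet was rich in saturated fat, contained added cholesterol and cholate, and was poor in protein, methionine and choline. The same animals were sampled before and after the diet, the initial state by surgical biopsy and steatosis at euthanasia, both after an overnight fast. Age, way of sampling and diet therefore changed together between the groups and cannot be told apart. The question was how hepatic transcripts changed as steatosis developed.

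In the liver, GH binds its receptor and the associated kinase JAK2 activates STAT5, which switches on *IGF1* and *IGFALS* together with *SOCS2* and *CISH*, whose products then dampen the receptor. The liver is the main source of circulating IGF-1. In blood most IGF travels in a ternary complex with IGFBP-3 and the acid-labile subunit, whereas IGFBP-1, whose gene is repressed by insulin, and IGFBP-2, which is raised when protein or energy intake is low, carry smaller and more quickly exchanged amounts. The hepatocyte makes most of these products, but *IGFBP3* is also known from non-parenchymal cells of the liver.

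Expression was measured by poly(A) RNA sequencing as FPKM, fragments per kilobase of transcript relative to all mapped fragments, a scale that allows levels of genes of unequal length to be compared. The sums of FPKM per library ranged from 511863 to 545731, and the step between the lowest values gave relative depths between 90.2% and 100.0% of the deepest library. Changes are log2 fold changes of FPKM + 0.1, steatosis minus initial state, from limma over 13175 genes, and a gene is said to have risen or fallen where its adjusted p was under 0.05. Across all genes tested the median change was 0.25, and with the libraries brought to a common median ratio it was -0.01, so a value near 0.25 on the deposited scale is a typical one. The hepatocyte markers were abundant in every library, with sums of 58048 to 90880 FPKM in the initial state and 52676 to 65770 in steatosis. Initial pool 1 stood apart: its 7 skeletal muscle markers summed to 2822 FPKM against 8.21 to 24.0 in the other initial pools and 5.64 to 7.02 in steatosis, and its 6 stomach mucosa markers to 1516 against 5.52 to 28.4 and 5.73 to 6.28. Traces were thus present in other initial pools too: the gastric *TFF1* measured 6.03 and 11.7 FPKM in initial pools 2 and 3 and the muscle *ACTA1* 4.08 and 10.5 FPKM in initial pools 3 and 4, against 0 and at most 0.04 FPKM in steatosis. Of the lists, 6 muscle and 5 stomach markers were at 0 in at least 1 library. Values without that pool are given for each of the 10 members and for the ratio of *IGFBP1* to *IGFBP3*. For *SOCS1* and *FOXA2*, highest in that pool, the range over each library left out is given.

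Of the 10 transcripts, *IGFBP2* and *IGFBP3* rose, *GHR* and *CISH* fell, and 6 did not pass the test. Among all genes tested 26.7% rose and 2.28% fell. By the stricter limits used in the study (log2 fold change above 1 in size, adjusted p below 0.01) *CISH* fell and no other member was called, against 6.01% of all genes higher and 0.334% lower. The median change of the 10 transcripts was -0.28, against 0.25 for all genes. The groups did not overlap for 4 of the 10 members, and for 32.1% of all genes tested. After median ratio scaling, 1 member was higher and 4 were lower, and over all genes 1532 were higher and 1283 lower. The p-values set the difference between groups against the spread between pools. The main fit took the libraries as independent, although the same animals were sampled before and after the diet.

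**Figure D1:**
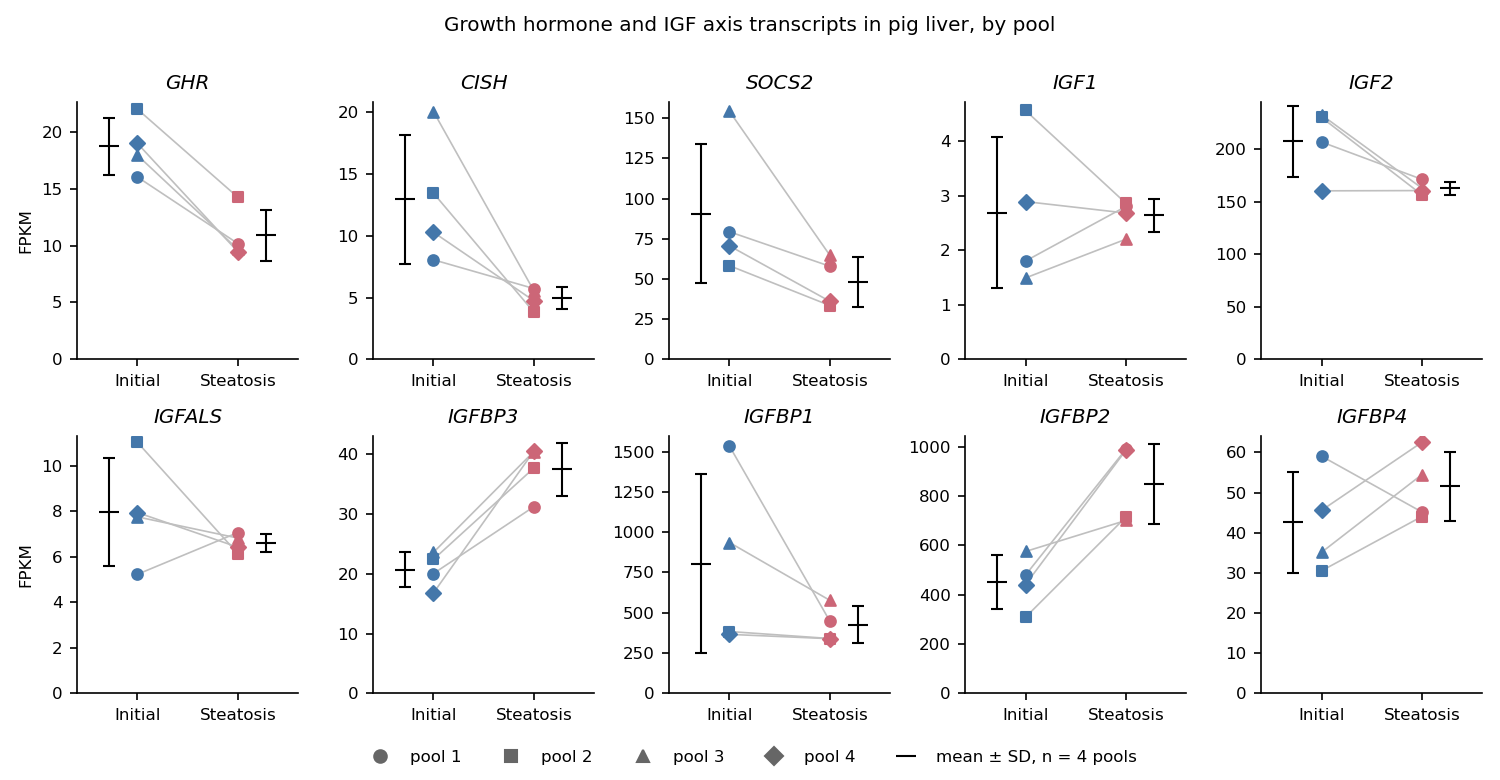
FPKM of each of the 10 axis transcripts in the 8 liver libraries, 1 panel per gene with its own linear axis from 0; symbols mark the pool number, grey lines join libraries of the same number, and black bars give the mean ± SD of 4 pools per group. All steatosis pools lie below all initial pools for *GHR* and *CISH* and above them for *IGFBP2* and *IGFBP3*, while the other 6 panels overlap.

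In the initial state the mean was highest for *IGFBP1* (805 FPKM), followed by *IGFBP2*, *IGF2*, *SOCS2*, *IGFBP4*, *IGFBP3*, *GHR*, *CISH*, *IGFALS* and *IGF1* (2.69 FPKM). Neighbours in this order had overlapping ranges, except that *IGFBP2* lay above *IGF2*, *IGF2* above *SOCS2*, *IGFBP4* above *IGFBP3* and *IGFALS* above *IGF1*. In steatosis *IGFBP2* (847 FPKM) stood above *IGFBP1* without overlap, *IGFBP4* above *SOCS2* with overlap, and *IGFALS* above *CISH* without overlap. Over the 8 libraries *IGFBP2* and *IGFBP1* ranked 106 and 116 of the 18103 genes by mean FPKM, whereas *IGF1* ranked 8930. Levels in bulk liver do not separate fewer cells of a type from less RNA per cell.

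The receptor fell. *GHR* (gene 397488, Sscrofa11.1, chr16:27126300-27422618) measured 16.1, 22.0, 17.98 and 19.0 FPKM in initial pools 1 to 4 and 10.2, 14.3, 9.69 and 9.48 FPKM in steatosis pools 1 to 4. Every steatosis pool lay below the lowest initial pool. The mean went from 18.8 ± 2.50 to 10.9 ± 2.27 FPKM (SD, n = 4 per group), 1.72-fold lower, a log2 fold change of -0.79 with an SE of 0.15 and a 95% interval from -1.13 to -0.45 (limma, adjusted p = 0.00447). The exact two-sided permutation test on the means gave p = 0.0286, the smallest that 4 against 4 allow. The difference was -0.86 without initial pool 1 (limma, adjusted p = 0.00476). At least 835 fragments were estimated behind each *GHR* value.

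*CISH*, a STAT5 target whose product blocks the receptor, showed the largest log2 fold change in size among the 10 on the deposited scale. *CISH* (gene 100518866, chr13:33086280-33090540) measured 8.06, 13.5, 20.1 and 10.3 FPKM in the initial state and 5.73, 3.82, 5.56 and 4.74 FPKM in steatosis. The initial pools were widely spread, yet the lowest of them lay above the highest steatosis pool. The mean went from 13.0 ± 5.23 to 4.96 ± 0.876 FPKM (SD, n = 4), 2.61-fold lower, a log2 fold change of -1.30 with an SE of 0.26 and a 95% interval from -1.87 to -0.73 (limma, adjusted p = 0.00502). Without initial pool 1, the lowest of the initial pools, the change was -1.50 (limma, adjusted p = 0.00194).

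*SOCS2*, the other feedback inhibitor, is the gene whose loss gives overgrown mice. *SOCS2* (gene 100037966, chr5:89581081-89587424) measured 79.3, 58.2, 154 and 70.5 FPKM in the initial state and 57.9, 33.4, 64.7 and 36.1 FPKM in steatosis. Initial pool 3 was the highest library, as it was for *CISH*, and the groups overlapped because steatosis pool 3 lay above initial pool 2. The mean was 90.6 ± 43.3 FPKM in the initial state and 48.0 ± 15.6 FPKM in steatosis (SD, n = 4), and the log2 fold change of -0.87, with an SE of 0.31 and a 95% interval from -1.56 to -0.17, did not pass the test (limma, adjusted p = 0.0611). Within pool numbers the difference had the same sign 4 times of 4, at -0.45, -0.80, -1.25 and -0.97. When the fit took pool numbers as blocks, the SE was 0.13 and *SOCS2* passed (limma, adjusted p = 0.00391), and with the median ratio scaling the change was -1.14 (limma, adjusted p = 0.034). Initial pool 3 also held the highest red blood cell markers, summing to 1303 FPKM against 138 to 557 in the other libraries, and their part in the result was not tested. Without that pool the change was -0.58 (limma, adjusted p = 0.107), and over all single pools left out the adjusted p from limma lay between 0.0433 and 0.151. Without initial pool 1 the change was -0.90 (limma, adjusted p = 0.0845). The ratio of *SOCS2* to *CISH* went from 9.73, 4.30, 7.65 and 6.80 in initial pools 1 to 4 to 9.94, 8.55, 11.5 and 7.47 in steatosis pools, higher in 4 of 4 pool numbers. The mean log2 difference of 0.44 did not exceed the spread between pools (exact two-sided permutation test, p = 0.2, 0.3 adjusted over 6 ratios). Paired by pool number, the exact sign-flip test gave p = 0.125, the smallest possible with 4 pairs.

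The growth factors themselves showed no called change. *IGF1* (gene 397491, chr5:81762027-81909253), the main effector of GH in the circulation, measured 1.80, 4.56, 1.49 and 2.89 FPKM in the initial state and 2.80, 2.86, 2.2 and 2.68 FPKM in steatosis. The steatosis pools all lay inside the range of the initial pools. The means were 2.69 ± 1.39 and 2.64 ± 0.299 FPKM (SD, n = 4), and the coefficient of variation was 51.6% in the initial state and 11.4% in steatosis. The log2 fold change of 0.10 had an SE of 0.30 and a 95% interval from -0.57 to 0.76 (limma, adjusted p = 0.83), so a moderate change in either direction was not detectable with these pools. Its sign turned with the scaling, to -0.17 with median ratios, and it was -0.05 without initial pool 1. An estimated 94 to 289 fragments lay behind each value, a counting error of 10.3% at the lowest. The annotation places *IGF1* over 2 other gene models, LOC110260785 and LOC110260784, so part of its reads may be shared, which was not examined.

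*IGF2* (gene 396916, chr2:1469183-1496417), the fetal growth factor, was the more abundant ligand. It measured 207, 230.4, 233 and 160.5 FPKM in the initial state and 171, 157, 163 and 161 FPKM in steatosis. The 4 steatosis pools lay close together and initial pool 4 lay among them. The means were 208 ± 33.6 and 163 ± 6.20 FPKM (SD, n = 4), and the log2 fold change of -0.33, with an SE of 0.12 and a 95% interval from -0.61 to -0.06, did not pass the test (limma, adjusted p = 0.0644). The change was -0.45 without initial pool 4 (limma, adjusted p = 0.0056) and -0.61 with the median ratio scaling (limma, adjusted p = 0.00265), and both of these passed. Without initial pool 1 the change was -0.33 and did not pass (limma, adjusted p = 0.101). *IGF2* exceeded *IGF1* by 50.5 to 156 times in the initial state and by 54.8 to 74.1 times in steatosis.

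*IGF1* set against *GHR*, the receptor for GH, gave ratios of 0.118, 0.210, 0.0879 and 0.156 in the initial state and 0.282, 0.206, 0.235 and 0.290 in steatosis. The ratio was higher in 3 of 4 pool numbers and the groups overlapped by steatosis pool 2, which lay just below initial pool 2. The mean log2 difference was 0.88, with an exact two-sided permutation p = 0.0571, 0.171 adjusted over 6 ratios.

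**Figure D2:**
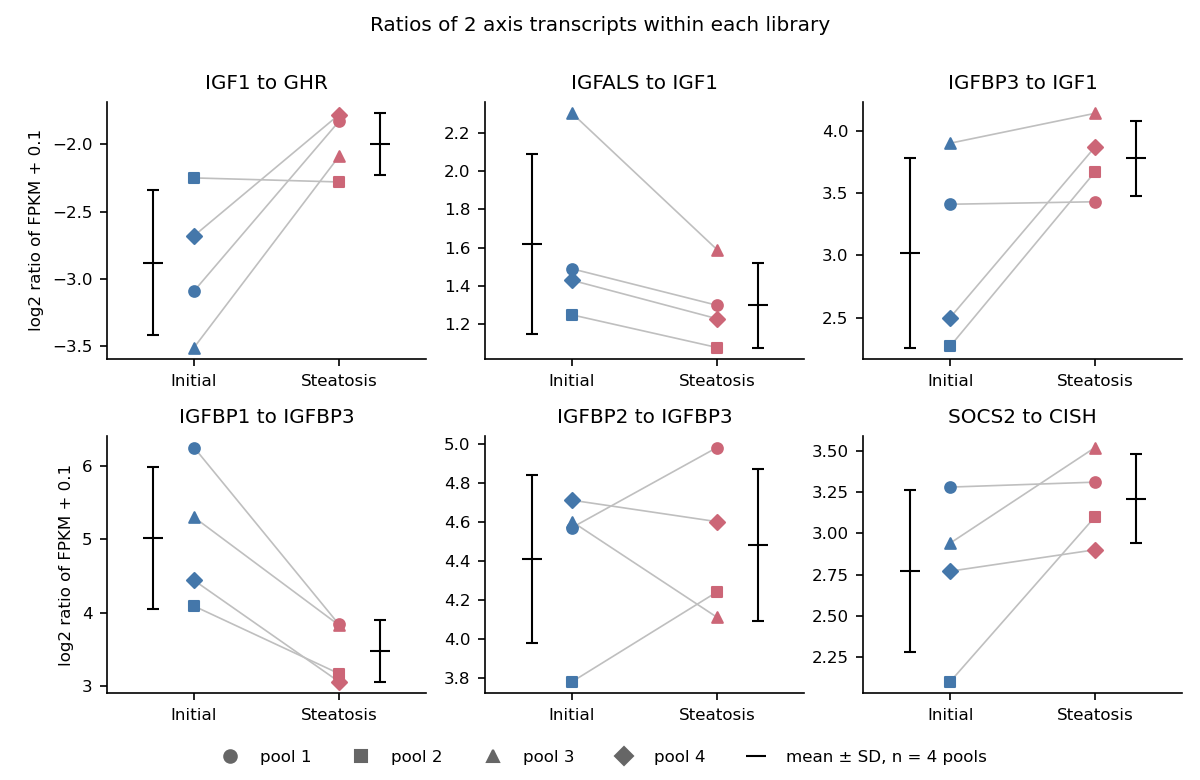
Log2 ratios of a pair of axis transcripts (FPKM + 0.1) within each library, 1 panel per ratio, each with its own axis that does not start at 0; symbols mark the pool number, grey lines join libraries of the same number, and black bars give the mean ± SD of 4 pools. *IGFBP1* to *IGFBP3* is the panel in which the groups do not overlap, and *IGFBP2* to *IGFBP3* shows lines in both directions.

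Of the partners in the ternary complex, *IGFBP3* rose. *IGFBP3* (gene 448812, chr18:50002921-50009425), the major carrier of IGF in plasma, measured 20.1, 22.4, 23.6 and 16.8 FPKM in the initial state and 31.2, 37.7, 40.5 and 40.5 FPKM in steatosis. All steatosis pools lay above all initial pools. The mean rose from 20.7 ± 2.99 to 37.5 ± 4.37 FPKM (SD, n = 4), 1.81-fold higher, a log2 fold change of 0.86 with an SE of 0.13 and a 95% interval from 0.56 to 1.15 (limma, adjusted p = 0.00145). Under median ratio scaling the rise was 0.58 and still passed (limma, adjusted p = 0.00612), and it was 0.84 without initial pool 1. Of the macrophage markers 7 of 10 rose and of the endothelial markers 3 of 8, beside 26.7% of all genes. After the same scaling 5 macrophage markers were higher and 1 lower, and 2 endothelial markers were higher. Their part in the rise of *IGFBP3* was not tested.

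*IGFALS* (gene 397322, chr3:40173595-40177789), the GH-dependent subunit that stabilises the complex, measured 5.23, 11.02, 7.75 and 7.94 FPKM in the initial state and 7.06, 6.14, 6.82 and 6.42 FPKM in steatosis. Initial pools 1 and 2 marked the bottom and the top of all 8 libraries, with the steatosis pools between them. The means were 7.99 ± 2.37 and 6.61 ± 0.410 FPKM (SD, n = 4), and the log2 fold change of -0.22, with an SE of 0.19 and a 95% interval from -0.65 to 0.21, did not pass the test (limma, adjusted p = 0.406). Without initial pool 1 it was -0.41 and did not pass either (limma, adjusted p = 0.0646). The gene model LOC110259948 overlaps *IGFALS*, so part of its reads may be shared.

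Within libraries *IGFBP3* exceeded *IGF1* by 10.6, 4.83, 14.9 and 5.66 times in the initial state and by 10.8, 12.8, 17.6 and 14.6 times in steatosis. The ratio was higher in 4 of 4 pool numbers, but initial pool 3 lay within the steatosis range. The mean log2 difference of 0.76 did not exceed the spread between pools (exact two-sided permutation test, p = 0.171, 0.3 adjusted over 6 ratios). *IGFALS* to *IGF1* was lower in 4 of 4 pool numbers, with a mean log2 difference of -0.32 that also did not exceed the spread between pools (exact two-sided permutation test, p = 0.257, 0.309 adjusted). Paired by pool number, both ratios gave p = 0.125 (exact sign-flip test), the smallest possible with 4 pairs.

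Of the smaller carriers, *IGFBP2* rose. *IGFBP2* (gene 397064, chr15:118822092-118850985) measured 479.5, 309, 575 and 441 FPKM in the initial state and 989, 715, 701 and 985 FPKM in steatosis. Steatosis pools 1 and 4 were the highest libraries, and the lowest steatosis pool lay above the highest initial pool. The mean rose from 451 ± 110.4 to 847 ± 162 FPKM (SD, n = 4), 1.88-fold higher, a log2 fold change of 0.92 with an SE of 0.20 and a 95% interval from 0.48 to 1.37 (limma, adjusted p = 0.00765). With the median ratio scaling the change was 0.65 and no longer passed (limma, adjusted p = 0.0644), but it passed when pool numbers were blocks in the same fit (limma, adjusted p = 0.0337). Without initial pool 1 it was 0.97 (limma, adjusted p = 0.0124).

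*IGFBP1* (gene 397270, chr18:50018487-50022799), the carrier under insulin control, had the widest relative spread of the 10 in the initial state, with a coefficient of variation of 68.7%. It measured 1534, 384, 936 and 366 FPKM in the initial state and 449, 340.5, 577 and 339.5 FPKM in steatosis. Initial pools 1 and 3 stood far above initial pools 2 and 4, and the latter lay inside the steatosis range. The means were 805 ± 553 and 427 ± 113 FPKM (SD, n = 4), and the log2 fold change of -0.69, with an SE of 0.43 and a 95% interval from -1.64 to 0.27, did not pass the test (limma, adjusted p = 0.248). All 4 pool numbers gave a lower value in steatosis, at -1.77, -0.17, -0.70 and -0.11 on the log2 scale. Without initial pool 1, the library with the muscle and stomach markers, the change was -0.29 (limma, adjusted p = 0.534).

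*IGFBP4* (gene 100144490, chr12:21966524-21980043), whose product binds IGF until a protease cleaves it, measured 59.1, 30.5, 35.1 and 45.6 FPKM in the initial state and 45.2, 44.0, 54.5 and 62.5 FPKM in steatosis. Initial pool 1 lay near the top of all libraries, and the other 3 pool numbers were higher in steatosis. The means were 42.6 ± 12.7 and 51.5 ± 8.67 FPKM (SD, n = 4), and the log2 fold change of 0.31, close to the median of all genes, had an SE of 0.20 and a 95% interval from -0.14 to 0.76 (limma, adjusted p = 0.274). It was 0.48 without initial pool 1 (limma, adjusted p = 0.0623) and 0.03 with the median ratio scaling.

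**Figure D3:**
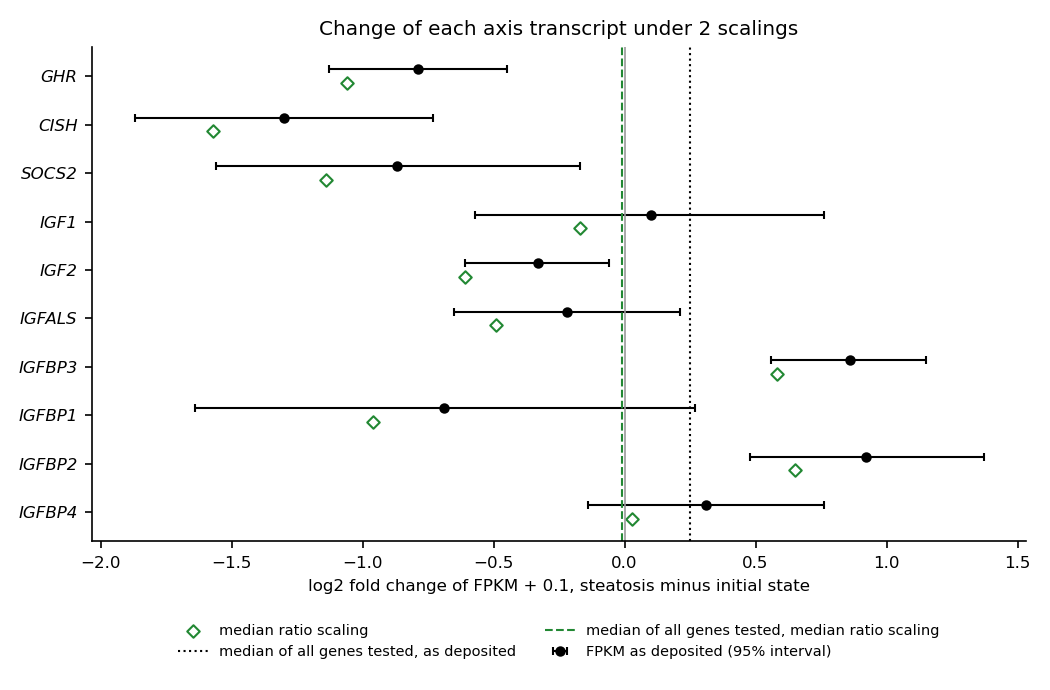
Log2 fold change of FPKM + 0.1, steatosis minus initial state, for the 10 axis transcripts; black points with bars give the deposited scale with its 95% interval, open diamonds the value after median ratio scaling, and vertical lines the median over all genes tested on each scale (0.25 dotted, -0.01 dashed). The diamonds lie to the left of the points by about the distance between both lines, and only *IGF1* changes side of 0.

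*IGFBP1* and *IGFBP3* lie 9.06 kb apart on chromosome 18 with no gene between them, and *IGFBP3* rose while *IGFBP1* was not called. The ratio of *IGFBP1* to *IGFBP3* was 76.1, 17.1, 39.5 and 21.7 in initial pools 1 to 4 and 14.3, 9.01, 14.2 and 8.36 in steatosis pools. The groups did not overlap and the ratio was lower in 4 of 4 pool numbers. The mean log2 ratio differed by -1.54, a ratio 2.92 times smaller in steatosis (exact two-sided permutation test, p = 0.0286, the smallest possible, and 0.171 adjusted over 6 ratios). Without initial pool 1 the difference was -1.13 (exact permutation p = 0.0571, the smallest that 3 against 4 allow). *IGFBP2* to *IGFBP3* gave a mean log2 difference of 0.07 (exact two-sided permutation test, p = 0.886), higher in 2 of 4 pool numbers.

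The make-up of the IGF-binding protein transcripts was also described as shares of the summed FPKM of the 7 genes *IGFBP1* to *IGFBP7*, which was 2144, 796, 1612 and 908 FPKM in the initial state and 1664, 1226, 1454 and 1585 FPKM in steatosis. *IGFBP1* made up 71.5%, 48.2%, 58.1% and 40.3% of the sum in the initial state and 27.0%, 27.8%, 39.7% and 21.4% in steatosis. *IGFBP2* made up 22.4%, 38.8%, 35.7% and 48.6% in the initial state and 59.4%, 58.3%, 48.2% and 62.2% in steatosis. *IGFBP1* was thus the larger share in 3 of 4 initial pools and *IGFBP2* in all 4 steatosis pools. *IGFBP3* stayed a minor component, at 0.935% to 2.82% and 1.88% to 3.07%. *IGFBP4* held 2.18% to 5.02% in the initial state and 2.71% to 3.94% in steatosis, and *IGFBP7* 2.29% to 6.12% and 5.45% to 9.78%. These shares add up to 100% within a library, so that a larger share of a gene lowers the others.

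**Figure D4:**
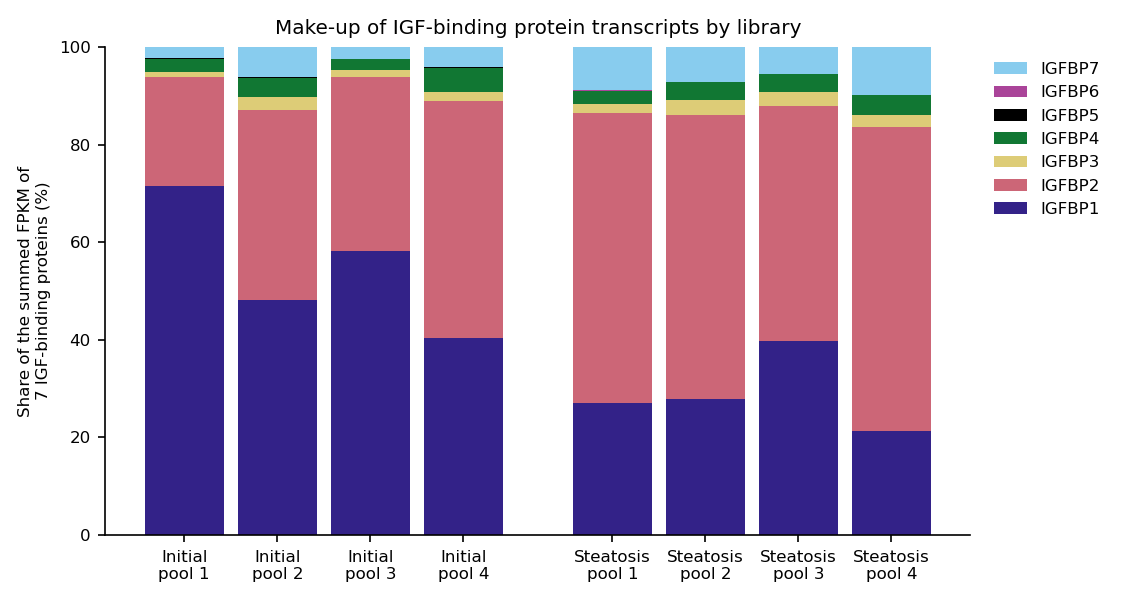
Share (%) of each of the 7 IGF-binding protein genes in their summed FPKM, 1 stacked bar per library, initial pools on the left and steatosis pools on the right. *IGFBP1* covers 40.3% to 71.5% of the bar in the initial state and 21.4% to 39.7% in steatosis, and *IGFBP2* fills most of the remainder.

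The surrounding pathway was examined with a list of 52 further genes. Of these, 51 were listed and 48 passed the filter on low values, with *PAPPA*, *STC1* and *STC2* below it. Of the 48, 10 rose, 2 fell and 36 did not pass the test, with a median change of 0.25, the same as for all genes tested. Among all genes tested 26.7% rose and 2.28% fell, and the counts by role below stand beside these shares. After median ratio scaling 4 were higher and 3 lower, and without steatosis pool 2 the number that rose was 6. With single libraries left out, the highest adjusted p from limma was 0.0815 for *SH2B1*, 0.0549 for *IGF1R*, 0.113 for *PAPPA2* and 0.0976 for *ADAM9*. For the other genes that rose it stayed under 0.05.

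Of the 8 genes that carry the signal from the receptor inwards, 2 rose. *JAK2*, the receptor kinase, measured 2.48 to 3.05 FPKM in the initial state and 2.52 to 3.39 FPKM in steatosis, a change of 0.18 with a 95% interval from -0.13 to 0.48 (limma, adjusted p = 0.357). *STAT5B*, the main GH-activated STAT of the liver, gave 0.32 with an interval from 0.03 to 0.62 (limma, adjusted p = 0.0905). *STAT5A* rose by 0.56 with an SE of 0.13 (limma, adjusted p = 0.00927), from 3.54 ± 0.381 to 5.27 ± 0.529 FPKM (SD, n = 4), and all steatosis pools lay above all initial pools. The adaptor *SH2B1* rose by 0.50 with an SE of 0.15 (limma, adjusted p = 0.0315). Neither *STAT5A* nor *SH2B1* passed with the median ratio scaling (limma, adjusted p = 0.0587 and 0.18). *STAT3*, not called on the deposited scale, was lower with that scaling (-0.44, limma, adjusted p = 0.0494). The spans of *STAT5A* and *STAT5B* overlap over a short stretch of chromosome 12, so part of their reads may be shared, which was not examined.

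Among 10 genes that restrain GH signalling, *SOCS1* fell and *SIRPA* and *PTPN6* rose. *SOCS1*, a further inhibitor of JAK kinases, measured 17.6, 11.96, 13.1 and 9.12 FPKM in the initial state and 6.53, 7.38, 8.50 and 7.64 FPKM in steatosis, without overlap. Its change was -0.74 with an SE of 0.18 (limma, adjusted p = 0.0143), in the same direction as *CISH*. With each library left out in turn the change lay between -0.90 and -0.58 (limma, adjusted p at most 0.0412). *SIRPA*, a receptor that recruits phosphatases, measured 6.83, 8.46, 9.18 and 6.74 FPKM in the initial state and 16.03, 18.5, 17.7 and 17.8 FPKM in steatosis, a rise of 1.17 with an SE of 0.12 (limma, adjusted p = 0.000191). *PTPN6*, the phosphatase SHP-1, rose by 0.89 with an SE of 0.14, from 9.63 ± 1.90 to 17.7 ± 0.917 FPKM (SD, n = 4; limma, adjusted p = 0.00198). Both are abundant in macrophages, and 7 of 10 macrophage markers rose and none fell, with summed levels of 879 to 1221 FPKM in the initial state and 1298 to 1507 in steatosis. The part of these cells in the rises of *SIRPA* and *PTPN6* was not tested. The gene model LOC110260750 overlaps *PTPN6*.

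Of 10 receptors and adaptors for IGF and insulin, *IGF1R* and *IGF2R* rose. *IGF1R*, which is known to be sparse in hepatocytes, measured 1.31, 1.19, 1.0 and 0.85 FPKM in the initial state and 1.70, 1.85, 1.65 and 1.63 FPKM in steatosis. The groups did not overlap and the change was 0.62 with an SE of 0.16 (limma, adjusted p = 0.018). *IGF2R*, which clears IGF-2 and sorts lysosomal enzymes, rose by 0.80 with an SE of 0.20, from 4.42 ± 0.871 to 7.83 ± 1.76 FPKM (SD, n = 4; limma, adjusted p = 0.0149). With the median ratio scaling neither passed (limma, adjusted p = 0.0794 for *IGF1R* and 0.0606 for *IGF2R*). *IGF1R* also overlaps the gene *PGPEP1L*.

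*IGFBP7* rose among the 3 other binding proteins. *IGFBP7*, a low-affinity relative made by endothelial and stellate cells, measured 49.2, 48.7, 40.5 and 37.8 FPKM in the initial state and 148, 88.3, 79.2 and 155 FPKM in steatosis, a rise of 1.36 with an SE of 0.22 (limma, adjusted p = 0.00193). The gene *POLR2B* overlaps it. Steatosis pools 1 and 4 were its highest libraries, as for *IGFBP2*. Of 8 genes for IGFBP-cleaving proteases and their inhibitors, 5 were tested and 3 rose. *HTRA1*, a secreted serine protease, measured 5.23, 5.39, 4.55 and 3.12 FPKM in the initial state and 13.6, 10.9, 11.4 and 16.5 FPKM in steatosis, a rise of 1.51 with an SE of 0.19 (limma, adjusted p = 0.000577). *PAPPA2* rose by 0.95 with an SE of 0.31 from a low level (0.315 ± 0.117 to 0.710 ± 0.263 FPKM; SD, n = 4; limma, adjusted p = 0.0421), and *ADAM9* rose by 0.52 with an SE of 0.16 (limma, adjusted p = 0.0349). *PAPPA2* and *ADAM9* did not pass with the median ratio scaling (limma, adjusted p = 0.112 and 0.238), whereas *HTRA1* and *IGFBP7* did.

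Beside *IGFBP7* and *HTRA1*, 3 of 8 endothelial markers rose and none fell, with sums of 72.8 to 87.8 FPKM in the initial state and 111 to 130.0 FPKM in steatosis. Of 9 stellate cell markers 3 rose and 1 fell, and their sums were 219, 116, 76.5 and 47.2 FPKM in the initial state and 151, 74.2, 83.7 and 208 FPKM in steatosis. *DES* is on both the stellate and the muscle list. It measured 71.55 FPKM in initial pool 1 and 3.23 to 7.39 FPKM in the other libraries. The sum of 219 FPKM is therefore not a measure of stellate cells alone. The part of endothelial and stellate cells in the rises of *IGFBP7* and *HTRA1* was not tested. Of the remaining lists, no cholangiocyte or red blood cell marker was called of 4 tested each (median changes 0.79 and -1.11), 2 of 6 lymphocyte markers fell, and 3 of the 9 rows that list the 8 hepatocyte markers rose. The shares of markers that rose stand beside 26.7% of all genes tested. Under median ratio scaling 2 endothelial markers were higher and none lower, 1 stellate marker was higher and 1 lower, and none of the hepatocyte rows was higher and 2 were lower. By the same scaling 3 lymphocyte markers and 1 red blood cell marker were lower and none higher, and no cholangiocyte marker was called.

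Among 10 hepatic transcription factors of the axis, *FOXA2* fell and the others did not pass the test. *FOXA2*, a factor that binds many liver promoters, measured 20.7, 13.6, 14.9 and 14.5 FPKM in the initial state and 8.02, 7.38, 6.47 and 8.02 FPKM in steatosis. The groups did not overlap, and the mean fell from 15.9 ± 3.23 to 7.47 ± 0.733 FPKM (SD, n = 4), a change of -1.07 with an SE of 0.14 (limma, adjusted p = 0.000742). With each library left out in turn the change lay between -1.13 and -0.94 (limma, adjusted p at most 0.00344). *CEBPA* passed only with the pool number as a block (0.51; limma, adjusted p = 0.0384 against 0.0898 without it). Its lowest value, 10.67 FPKM, was in initial pool 1. Both IGF2 mRNA-binding proteins tested did not pass.

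**Figure D5:**
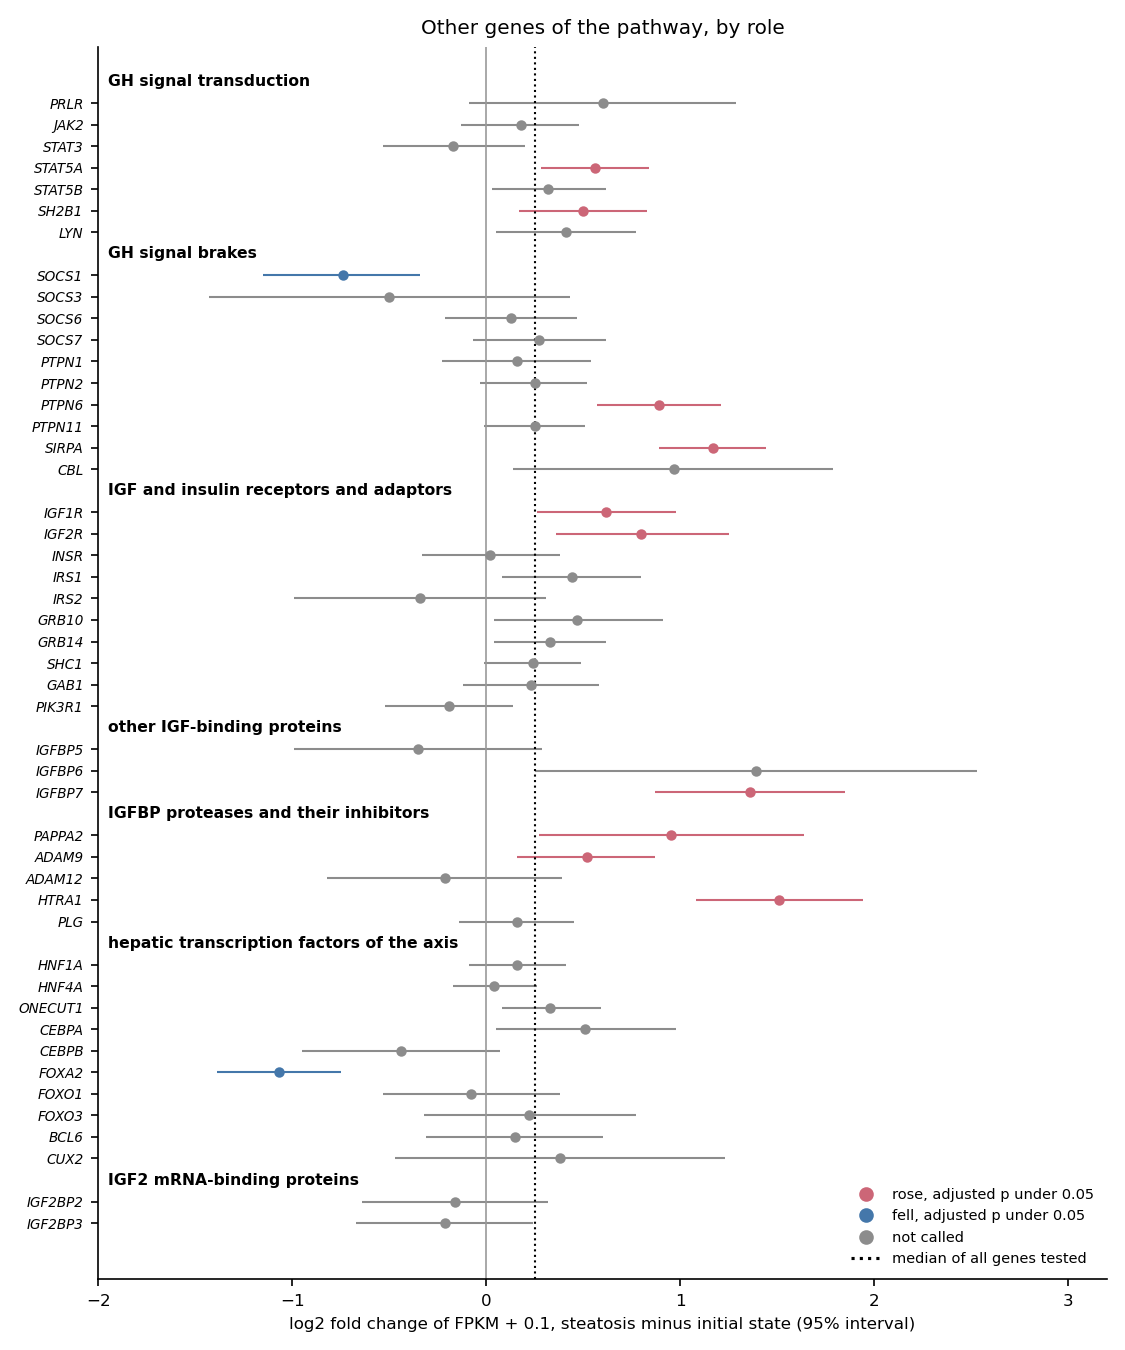
Log2 fold change of FPKM + 0.1, steatosis minus initial state, for pathway genes tested, grouped by role; points give the estimate, horizontal lines its 95% interval, red and blue mark genes that rose (10) or fell (2), and the dotted line is the median of all genes tested (0.25). *HTRA1*, *IGFBP7* and *SIRPA* lie farthest to the right of the genes that rose, and *FOXA2* and *SOCS1* to the left of 0.

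Genes whose levels followed *IGF1* were sought among 10529 genes by Pearson's r of log2(FPKM + 0.1) over the 8 libraries. The 5 highest were *TXNDC9*, *SNRNP35* and *INAFM2*, each with r = 0.96, and *MRPL35* and *KIAA0391*, each with r = 0.95. All 5 were highest in initial pool 2, where *IGF1* was also highest. *TXNDC9*, for instance, measured 8.26 FPKM there and between 5.6 and 7.45 FPKM in the other libraries. The 8 points hold both groups and share their libraries, and the values are a description.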

How the data were processed

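Poly(A) RNA of 8 pig liver pools, 4 from the initial state and 4 from steatosis, had been sequenced as 100-base read pairs. The authors mapped clean reads to the Sus scrofa 11.1 genome with HISAT2 2.0.4, added newly assembled coding transcripts, mapped with Bowtie2 2.2.5 and estimated expression with RSEM 1.2.12, per the labels and the study's methods. The values are FPKM per gene, deposited by the authors for each library (17778 known genes and 325 new transcripts). The 4 deposited comparison tables hold the authors' own fold changes and p-values, which were not used. Gene lengths were taken from the first of them.

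Genes reaching 0.3 FPKM in 4 or more of the 8 libraries were kept. log2(FPKM + 0.1) was fitted with limma 3.58.1 (R 4.3.3) with a mean-variance trend and group as the only term, with Benjamini-Hochberg adjustment over all 13175 genes. A pseudocount lessens the fold change of genes near it. Single levels and 6 ratios were compared by exact two-sided permutation tests (scipy 1.17.1), with Benjamini-Hochberg adjustment over the ratios. On simulated data for the comparison of steatosis with the initial state, over 13121 genes, 73 of 96 changes of size 1 and 96 of 98 of size 2 (log2) were found, and 7 of 12927 unchanged genes were called. The simulation changed few genes, up and down alike, with independent noise and no shift between libraries. Its rates may therefore not hold for the data, where many genes were called and the median change was not 0.

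No read totals were given with the values. Fragments behind a value were estimated from the step between low FPKM values and from gene length, so they are approximate, and counting error covers sampling of fragments alone. Pool numbers come from the labels. Deviations from the group means of libraries with the same number correlated at 0.163, 0.35, 0.317 and 0.247 for pools 1 to 4, and the numbers were taken to pair libraries, although which 2 animals each pool held is not stated by number. The same animals were sampled before and after the diet.

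The members, the pathway list and the marker lists were chosen with earlier results of these data known. The text names all 10 members, every pathway gene with an adjusted p under 0.05, *JAK2*, *STAT5A*, *STAT5B* and *IGF1R*, and the 5 genes most like *IGF1* with a mean of at least 1 FPKM. *TFF1*, *ACTA1* and *DES*, single markers, were added once their values were known. So were *CEBPA*, whose call changed with the block, and *STAT3*, whose call changed with the scaling. The values of 1 further pathway gene are not reported here, and it is counted but not drawn. Positions and overlaps of genes are from RefSeq, assembly Sscrofa11.1, in which all 10 members were matched by gene number. Alternatives were another pseudocount, other filters, 3 other scalings, the pool number as a block, no trend, and leaving out each library.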

Additional observations from a re-analysis of the deposited data

Results flagged for a closer look

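The level of *GHR* in steatosis pool 2, 14.3 FPKM, lay far above the other 3 steatosis pools, which ranged from 9.48 to 10.2 FPKM: the gap to the nearest of them was 0.85 of the whole range of the group. Of 20 groups of 4 values screened this was the one that stood out, and chance marks about 1 group in 20. Initial pool 2 was also the highest initial pool for *GHR*, at 22.0 FPKM. Without steatosis pool 2 the log2 fold change of *GHR* was -0.92 (limma, adjusted p = 0.00206), against -0.79 with it.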

How the results depend on the processing

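Of the 10 members, *GHR*, *CISH* and *IGFBP3* kept their direction and their call under all 17 alternatives run for each. With the median ratio scaling 1 member was called higher and 4 lower, since *IGFBP2* no longer passed (0.65; limma, adjusted p = 0.0644) while *SOCS2* and *IGF2* did. Upper quartile scaling gave 4 lower, and the study's limits 0 higher and 1 lower. Of the pathway list, the number that rose was 5 with upper quartiles and 4 with median ratios. Over all genes 1679 rose and 1019 fell with upper quartiles, and 1532 and 1283 with median ratios. *IGF1* turned to -0.13 and -0.17 under these 2 scalings. The cause of these shifts was not tested. With the pool number as a block 2 members rose and 3 fell, and 12 pathway genes rose. With the block and median ratios together 2 members rose, *IGFBP2* (limma, adjusted p = 0.0337) and *IGFBP3*, and 5 fell, *IGFBP1* now among them (limma, adjusted p = 0.0453), 5 pathway genes and 1509 of all genes rose, 1093 of all genes fell, and *IGF1* was at -0.17. On the deposited scale the block changed the call of *SOCS2* and of no other member. Leaving out each library gave 2 members that rose and 2 to 3 that fell, 6 to 12 pathway genes that rose (6 without steatosis pool 2), and 2324 to 3389 genes that rose and 173 to 395 that fell over all genes (lowest without steatosis pool 4, with 194 that fell without steatosis pool 3). It moved *IGF1* between -0.13 and 0.39. For the ratios, *IGF1* to *GHR* with a pseudocount of 1 differed by 0.79 (exact permutation p = 0.0286). *IGFBP1* to *IGFBP3* within pool numbers differed by -1.54 (exact sign-flip p = 0.125, the smallest possible with 4 pairs), and between -1.85 and -1.13 without single libraries, where p cannot go below 0.0571. *IGFBP2* to *IGFBP3* lay between -0.14 and 0.19 without single libraries, negative without initial pool 2 or without steatosis pool 1 (-0.10). Among the members *IGF1* had the fewest estimated fragments, as few as 94 in a library.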

Other observations

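Several pathway genes that were not called were highest in initial pool 1, among them *SOCS3*, *IRS2*, *FOXO3*, *FOXO1* and *CEBPB*. Others, such as *CEBPA*, were lowest there. Values are given for *SOCS3* and *IRS2*, picked after they were seen. *SOCS3*, a feedback inhibitor induced by cytokines, measured 14.0 FPKM in initial pool 1 and 2.94 to 6.29 FPKM in the other 7 libraries. *IRS2*, an insulin receptor adaptor, measured 22.7 FPKM in initial pool 1 and 7.26 to 10.1 FPKM in the others. Initial pool 1 also held the highest *IGFBP1* (1534 FPKM) and the muscle and stomach markers. In steatosis, pools 1 and 4 were the highest for *IGFBP2* (989 and 985 FPKM), for *IGFBP7* (148 and 155 FPKM) and for the summed stellate cell markers (151 and 208 FPKM), and also for the summed cholangiocyte markers (18.6 and 18.5 FPKM against 7.57 and 7.89 in pools 2 and 3). The stellate markers *LRAT*, *RGS5* and *DES* did not follow this order, while the others on that list did. *LRAT* measured 4.21, 4.45, 4.33 and 3.69 FPKM in steatosis pools 1 to 4. With 4 pools the pattern is a description of the libraries, and its cause was not tested.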
